A study of Bos taurus with 16 samples.

Results

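The prefrontal cortex (PFC) of 4 Lidia bulls of the La Quinta farm was compared with that of 8 Wagyu bulls, that is, 12 of the 16 animals sequenced. The members were taken by title: those of the aggressive group that end in the numbers of LQ8312, LQ8314, LQ8320 and LQ8324, as the bulls are called here, which the study's sample table lists under La Quinta, and the 8 non-aggressive titles. The other 4 Lidia bulls, from the Montealto farm, entered no value of the main comparison. All were non-castrated males aged 3 years, except the Montealto bull MA8174, aged 4 years, and each gave 1 library. The Lidia, bred for fighting, were reared extensively on pasture and fed concentrates in enclosures in the last months before death. They were provoked to fight before the corrida and sampled at the bullring. The Wagyu, bred for meat and docility, were reared on 1 farm, grazed when young and were then fed a high-concentrate diet. They were sampled at a slaughterhouse. PFC tissue was cut by the same person within 1 h of death in both groups. Breed, farm, handling and place of slaughter fall on the same split, so they cannot be told apart, and the bulls of 1 farm stand for 1 herd of the breed.

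The PFC is the part of the frontal cortex that weighs social signals and restrains impulsive behaviour, through excitatory projection neurons held in check by local inhibitory interneurons. Many interneurons release neuropeptides such as neuropeptide Y and cortistatin beside GABA. Neuronal firing and synaptic input switch on transcription factors and secreted factors such as BDNF, while stress hormones act through the glucocorticoid receptor on another set of genes. The cortex is wrapped in the meninges, whose fibroblasts make collagens, proteoglycans and retinoic acid, and in which an arachnoid barrier carries organic anion transporters.

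The abundance values are FPKM, fragments per kilobase of exon relative to all mapped fragments, summed over the transcripts of a gene and then scaled between the 12 animals by the median of their ratios, here called scaled FPKM. The fragments behind them numbered 13.7 to 33.6 M per bull in La Quinta and 7.67 to 37.0 M in Wagyu, M standing for mega, and did not differ beyond the scatter of the bulls (p = 0.537 by exact two-sided permutation, with 0.00404 as the smallest possible). LQ8324 and Wagyu replicate 5 held the fewest fragments and the largest scaling factors, 1.70 and 2.11. Genes of the mitochondrial genome took 22.2% to 30.6% of the FPKM in La Quinta and 17.8% to 39.3% in Wagyu (p = 0.501 by exact two-sided permutation). Defining genes of cortex were present in all 12 libraries. The glutamate transporter gene SLC17A7 of excitatory neurons lay between 104 and 153 scaled FPKM in La Quinta and between 115 and 190 in Wagyu, and the astrocyte gene GFAP between 199.6 and 262 and between 95.8 and 345. No pair of animals shared an identical value above 0 in any gene, so no library was counted as deposited more than once.

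Of 16542 genes with a mean of at least 0.1 scaled FPKM, 170 (1.03%) were called higher and 114 (0.689%) lower in La Quinta than in Wagyu by limma, with adjusted p not above 0.05 and a log2 fold change not under 0.1 in size. Over the whole set of tested genes the median log2 fold change was -0.02. Genes called higher had a median log2 fold change of 1.22, and 108 of them at least 1, whereas genes called lower had a median of -0.73, and 39 of them were at or beyond the same size. All 4 La Quinta values lay above all 8 Wagyu values in 232 genes (1.40%) and below them in 241 (1.46%). Of the called genes, 109 and 96 belonged to these. The counts depended on single animals. They fell to 31 higher and 34 lower without LQ8314, to 33 and 42 without LQ8320, to 33 and 46 without LQ8324, and to 18 and 31 without both animals of large scaling factor. They rose to 342 and 152 without LQ8312, and to 567 and 222 without Wagyu replicate 3. Without scaling between animals 39 and 11 genes were called, so that the higher share of calls moved from 59.9% to 78%.

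**Figure D1:**
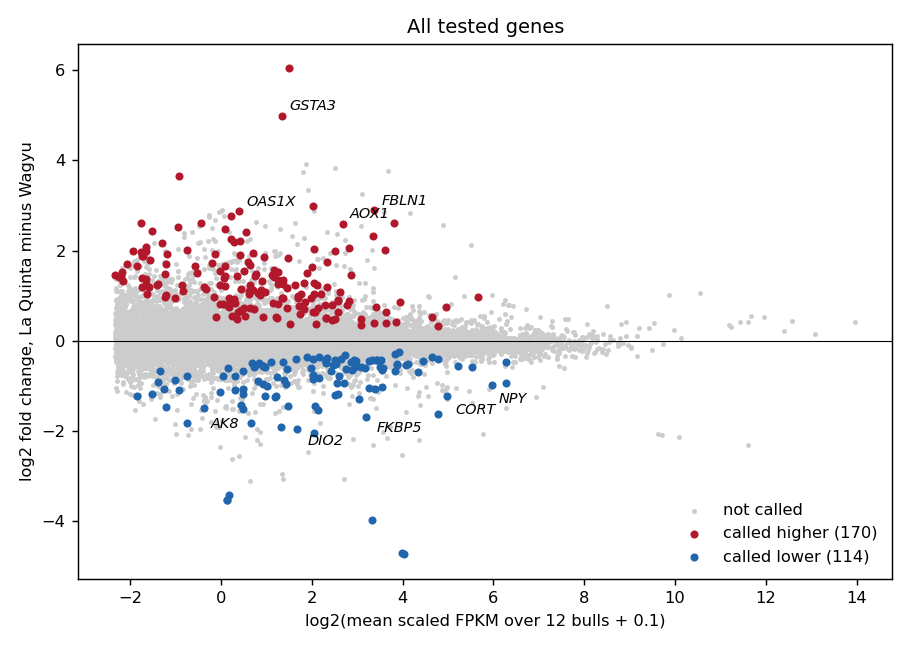
Each point is a tested gene, with its mean level over the 12 bulls on the log2 scale on the x axis and the log2 fold change of La Quinta minus Wagyu on the y axis. The 170 genes called higher are red, the 114 called lower are blue, and GSTA3 has the largest rise among genes with a symbol.

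Gene symbols come only from the list of differentially expressed genes that the study drew from all 16 animals, these 12 included. The direction of a named gene is therefore not independent evidence. A symbol could be given to 991 tested genes, of which 754 had a positive log2 fold change and whose median was 0.55. Among these 991 genes, 111 (11.2%) were called higher and 63 (6.36%) lower. The counts of called genes in the lists below are to be read against these shares. At an unadjusted limma p under 0.05, 1554 of all 16542 tested genes were higher and 1187 lower. Neither that share nor the share called by limma-voom was computed for the genes with a symbol. List counts at this threshold or by limma-voom therefore have no matching background and only describe the lists.

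The gene with a symbol that rose most was GSTA3, an alpha-class glutathione S-transferase, which conjugates glutathione to electrophiles and lies on chromosome 23 at 25182280 to 25204322 of ARS-UCD 1.2. It stood at 7.23, 4.98, 11.1 and 4.94 scaled FPKM in LQ8312, LQ8314, LQ8320 and LQ8324, the order kept throughout, and at 0.0321, 0.0720 and 0.399 as the lowest, median and highest of the Wagyu bulls. The lowest La Quinta value was thus far above every Wagyu value, with a log2 fold change of 4.99 ± 0.39 (SE, n = 4 and 8, limma adjusted p = 5.95e-05). Alpha-class transferases are a family of near-identical copies, so reads may have been split between them. OAS1X, of the interferon-induced oligoadenylate synthetases (chromosome 17, 61376225 to 61385129), was at 2.23, 2.98, 3.35 and 3.15 in La Quinta and 0.0717, 0.321 and 0.676 in Wagyu, without overlap. Its log2 fold change was 2.87 ± 0.39 (limma adjusted p = 0.00614), and it too has close paralogs. AOX1, aldehyde oxidase, which oxidises aldehydes and N-heterocycles (chromosome 2, 89102213 to 89173911), stood at 8.12, 13.3, 18.3 and 17.3 against 1.06, 2.13 and 4.30. AOX1 thereby rose by 2.60 ± 0.34 on the log2 scale (limma adjusted p = 0.00507), and 1 of its 2 transcripts, ENSBTAT00000012827, gave 99.4% of its FPKM in La Quinta.

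Among the other 7 genes of largest rise in this selection, CFI, the protease that inactivates complement (chromosome 6, 15613508 to 15664735), was the most abundant. CFI measured 19.4, 27.3, 16.5 and 33.5 scaled FPKM in La Quinta and 3.85, 5.30 and 12.8 in Wagyu, a log2 fold change of 2.01 ± 0.29 (limma adjusted p = 0.00897). Its FPKM was spread over several transcripts, of which ENSBTAT00000067796 was called by itself, from 1.25 ± 0.689 in Wagyu to 5.49 ± 1.80 in La Quinta (SD, limma adjusted p = 0.0194). ALDH1A1, which oxidises retinaldehyde to retinoic acid (chromosome 8, 49053228 to 49106706), read 4.19, 7.83, 11 and 16.0 against 1.80, 2.58 and 3.75, with LQ8312 closest to Wagyu. The log2 fold change of ALDH1A1 was 1.75 ± 0.29 (limma adjusted p = 0.0135). VCAM1, an adhesion molecule of activated endothelium (chromosome 3, 42553488 to 42576599), was at 1.12, 1.15, 2.02 and 1.64 against 0.0822, 0.472 and 0.689, and rose by 1.73 ± 0.38 (limma adjusted p = 0.0404). The remaining 4 were STEAP1, a membrane metalloreductase (chromosome 4, 74355342 to 74368429), COL6A1, a chain of collagen VI (chromosome 1, 145668949 to 145687210), PDGFRL, a PDGF receptor-like protein (chromosome 27, 19636210 to 19709829), and CASQ2, the calcium-binding calsequestrin of muscle (chromosome 3, 27540536 to 27611173). Their log2 fold changes were 2.01, 1.76, 1.66 and 1.65, with limma adjusted p = 0.0138, 0.0178, 0.0153 and 0.0189. In each of the 4, LQ8312 was the lowest of the La Quinta bulls. Its place above the highest Wagyu bull was set by the selection. In COL6A1 the margin was small, 1.313 in LQ8312 against 1.309 in the highest Wagyu bull. STEAP1, for example, was at 0.445, 0.885, 1.47 and 1.68 against 0.0469, 0.179 and 0.393. Of these 7 genes, CFI alone kept its call without both animals of large scaling factor (limma adjusted p = 0.0494). ALDH1A1, VCAM1, STEAP1, COL6A1, PDGFRL and CASQ2 then had limma adjusted p = 0.0723, 0.163, 0.0954, 0.119, 0.0508 and 0.119.

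**Figure D2:**
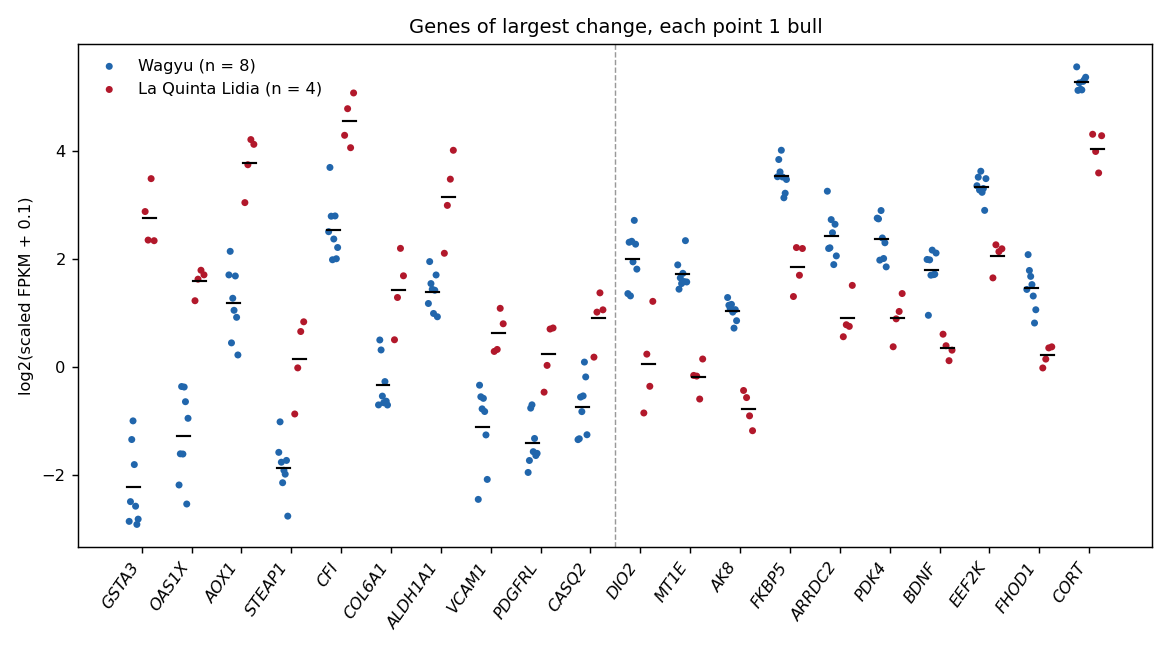
Each point is 1 bull, with log2(scaled FPKM + 0.1) on the y axis for the 10 genes with a symbol of largest rise and the 10 of largest fall, selected for groups that do not overlap. Black bars are group means, and GSTA3 shows the widest gap, from 0.399 scaled FPKM in the highest Wagyu bull to 4.94 in the lowest La Quinta bull.

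DIO2, the deiodinase that turns thyroxine into the active thyroid hormone (chromosome 10, 91495432 to 91504569), fell most among the selected genes with a symbol. DIO2 was at 0.452, 1.08, 0.678 and 2.21 scaled FPKM in La Quinta and 2.38, 4.23 and 6.44 in Wagyu, a log2 fold change of -1.95 ± 0.35 (limma adjusted p = 0.0185), and LQ8324 came closest to the lowest Wagyu bull. AK8, an adenylate kinase of motile cilia (chromosome 11, 102774910 to 102911331), stood at 0.637, 0.573, 0.432 and 0.340 against 1.54, 1.99 and 2.33, with a narrow spread in both groups. Its log2 fold change was -1.81 ± 0.15 (limma adjusted p = 8.07e-05). The fall lay in transcript ENSBTAT00000005345, which went from 1.70 ± 0.307 to 0.190 ± 0.304 (SD) and from 86.9% to 38.3% of the FPKM of AK8. EEF2K, the kinase that restrains translation elongation (chromosome 25, 19903413 to 19955828), measured 3.03, 4.68, 4.28 and 4.44 against 7.34, 9.92 and 12.2. EEF2K fell by 1.28 ± 0.14 on the log2 scale (limma adjusted p = 0.00119). FHOD1, a formin that organises actin (chromosome 18, 34857829 to 34874225), and ARRDC2, an arrestin-domain protein (chromosome 7, 5175099 to 5179620), had log2 fold changes of -1.25 ± 0.20 and -1.53 ± 0.24 (limma adjusted p = 0.0117 and 0.0106). FHOD1 stood at 0.884, 1.00, 1.17 and 1.19 against 1.65, 2.68 and 4.11.

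Among genes without a symbol, the 2 of largest rise were listed at 0 in all 8 Wagyu bulls, so no fold is given. ENSBTAG00000029640, a gene of 154 bases on chromosome 18 at 14823839 to 14823992, was at 16.6, 8.97, 2.39 and 4.89 scaled FPKM in La Quinta (limma adjusted p = 9.75e-06). ENSBTAG00000012710 on chromosome 13 at 66207181 to 66216486 was at 0.917, 0.555, 1.80 and 1.84 (limma adjusted p = 4.88e-05). Both genes passed the filter on the mean only through La Quinta, and the Wagyu values carry no spread. Their small adjusted p is therefore not support for the difference. The 2 of largest fall, ENSBTAG00000042549 on chromosome 9 at 91731896 to 91732039 and ENSBTAG00000042868 on chromosome 19 at 27310490 to 27310633, are copies of 144 bases that each overlap another gene and share the same La Quinta values, 0.466, 2.42, 0 and 3.30, against 11.1, 22.9 and 38.7 in Wagyu for the first (limma adjusted p = 0.0106). Genes this short are at or below the length of a fragment, so their FPKM is uncertain, and the values of the 2 copies cannot be told apart.

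Of the neuropeptide genes tested, 7 of 14 were called lower in the La Quinta cortex. All 14 tested members of a list of 21 neuropeptides, their binding protein and processing enzymes had a negative log2 fold change, with a median of -1.0, and limma called 0 higher. At an unadjusted p under 0.05 there were 13 lower and 0 higher, and limma-voom on estimated fragments also called 7 lower and 0 higher. NPY, neuropeptide Y (chromosome 4, 71616842 to 71623983), stood at 46.5, 35.3, 38.3 and 31.7 scaled FPKM in La Quinta and 58.2, 78.1 and 93.8 in Wagyu, a log2 fold change of -0.97 ± 0.13 (limma adjusted p = 0.00614). CORT, cortistatin, a somatostatin-related peptide of cortical interneurons (chromosome 16, 43127556 to 43129154), was at 19.6, 15.7, 11.9 and 19.3 against 34.6, 38.5 and 46.8, with a log2 fold change of -1.23 ± 0.13 (limma adjusted p = 0.00101). In both genes every La Quinta bull was below every Wagyu bull. CRHBP, the protein that binds and sequesters corticotropin-releasing hormone, read 6.85, 5.77, 4.43 and 5.25 against 9.96, 11.6 and 13.1 and fell by 1.04 ± 0.11 (limma adjusted p = 0.00109).

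The other 4 called members were GRP, gastrin-releasing peptide, PNOC, the precursor of nociceptin, PTHLH, parathyroid hormone-like hormone, and VGF, a secreted precursor induced by neurotrophins. GRP was scarce in La Quinta, 0.216, 0.0933, 0.0393 and 0.127 against 0.320, 0.604 and 1.12, with a log2 fold change of -1.81 ± 0.32 (limma adjusted p = 0.0178). PNOC, at 2.02, 0.895, 0.716 and 1.07 against 1.70, 2.87 and 3.55, overlapped through LQ8312 and had a log2 fold change of -1.23 (limma adjusted p = 0.0247). PTHLH had -0.97 and VGF -1.06 (limma adjusted p = 0.0245 and 0.0334), and LQ8324 with 9.55 scaled FPKM of VGF lay above the lowest Wagyu bull, 7.73. Not called were VIP, vasoactive intestinal peptide, at -1.03 (limma adjusted p = 0.109), ADCYAP1, the precursor of PACAP, at -0.82 (limma adjusted p = 0.110), and the convertases PCSK1 and PCSK2, at -0.46 and -0.38 (limma adjusted p = 0.345 and 0.216). The summed list measured 303, 242, 232 and 217 in La Quinta and 329, 406 and 431 in Wagyu, without overlap. The 7 listed genes without a symbol are not in it. Its members all come from the study's own list of differing genes, so this separation is not independent evidence. CHGB and SCG2, the most abundant members with Wagyu means of 114 and 95.25, overlapped between groups. Neither was called (limma adjusted p = 0.116 and 0.204). Without the animals of large scaling factor 4 members were called lower, and the median was -0.99. Without scaling between animals 1 member was called lower, and with the summed meningeal markers described below as a covariate 0, with medians of -0.87 and -0.72. In bulk tissue, fewer cells of a type and less RNA per cell cannot be told apart.

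Of 26 activity-dependent genes, transcribed when neurons fire, 18 were tested, 15 of them with a negative log2 fold change and a median of -0.80. Limma called 4 lower, BDNF, EGR3, NPTX2 and VGF, and 0 higher, against 14 and 2 at an unadjusted p under 0.05 and 4 and 0 by limma-voom. BDNF, the neurotrophin that strengthens synapses (chromosome 15, 58385523 to 58422131), was at 1.42, 1.21, 0.980 and 1.14 scaled FPKM in La Quinta and 1.83, 3.51 and 4.37 in Wagyu. The highest La Quinta bull was below the lowest Wagyu bull, replicate 3, and the log2 fold change was -1.43 ± 0.19 (limma adjusted p = 0.00614). EGR3, a transcription factor of the immediate early genes, stood at 2.87, 2.60, 3.39 and 2.75 against 4.22, 7.16 and 9.59, a log2 fold change of -1.21 ± 0.18 (limma adjusted p = 0.00886). NPTX2, a pentraxin secreted at excitatory synapses onto interneurons, measured 3.51, 2.76, 2.77 and 3.33 against 5.40, 6.86 and 10.7, with -1.18 ± 0.18 (limma adjusted p = 0.0106). Both genes were apart in all 12 bulls.

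Not every member had the same sign. JUNB, NR4A1 and DUSP1, which are also rapidly induced, had positive log2 fold changes of 0.60, 0.04 and 0.72, none of them called (limma adjusted p = 0.221, 0.971 and 0.174). DUSP1, a phosphatase that switches off MAP kinases, read 9.51, 13.9, 17.8 and 14.5 in La Quinta against 5.26, 9.14 and 12.9 in Wagyu, with overlap through LQ8312. EGR2, with 0.0737, 0.127, 0.153 and 0.365 against 0.231, 0.649 and 2.36, had the most negative log2 fold change of the list, -1.70, and missed the threshold (limma adjusted p = 0.0658). EGR4 and NR4A3 gave -0.81 and -0.93 (limma adjusted p = 0.0737 and 0.109). The 3 members BDNF, NPTX2 and VGF were still called without both animals of large scaling factor, whereas EGR3 then had limma adjusted p = 0.0504. Without scaling between animals, and likewise with the meningeal covariate, limma called 0 members, with medians of -0.67 and -0.71.

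Among inhibitory interneuron and GABA genes, 7 of 20 were tested, all 7 had a negative log2 fold change, with a median of -0.70, and CRHBP alone was called, with 5 lower at an unadjusted p under 0.05 and 2 by limma-voom. GAD2, which makes GABA, was at 3.00, 3.38, 4.51 and 4.02 against 1.80, 5.56 and 9.18, within the Wagyu range, with a log2 fold change of -0.56 (limma adjusted p = 0.460). Of the excitatory neuron and glutamate synapse genes, 10 of 20 were tested, limma and limma-voom called 0 in either direction, 8 had a negative log2 fold change with an unadjusted p under 0.05, and the median was -0.48. The vesicular glutamate transporter SLC17A7 had -0.37 and the transcription factor NEUROD2 -0.48 (limma adjusted p = 0.216 and 0.145). TUBB3, neuronal tubulin and the single tested gene of 12 neuron markers, had -0.41 (limma adjusted p = 0.170) and ran from 88.2 to 134 in La Quinta and from 113 to 186 in Wagyu.

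In the dopamine receptor and cAMP list, 9 of 15 genes were tested, limma and limma-voom both called 2 lower and 0 higher, against 4 and 1 at an unadjusted p under 0.05, and the median was -0.51. GNAL, the stimulatory G protein subunit that couples dopamine receptors to adenylyl cyclase, stood at 3.84, 3.16, 4.72 and 2.81 scaled FPKM against 5.71, 6.92 and 8.01, without overlap, and fell by 0.92 ± 0.13 (limma adjusted p = 0.00886). RGS8, which speeds the shut-off of G proteins, was at 0.634, 0.614, 0.663 and 0.459 against 0.822, 1.09 and 1.69 (log2 fold change -0.78 ± 0.16, limma adjusted p = 0.0325). The receptors DRD2 and DRD5 had 0.41 and -1.16, and PPP1R1B, the dopamine-regulated phosphatase inhibitor, 0.66 (limma adjusted p = 0.470, 0.129 and 0.0784). The receptors were low, below 1 scaled FPKM in all 12 bulls.

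Glucocorticoid-responsive genes split in direction. Of 17 listed, 12 were tested, 4 were called lower and 2 higher, and the median was -0.11. FKBP5, a co-chaperone that lowers the hormone affinity of the glucocorticoid receptor and is itself induced by it (chromosome 23, 9555619 to 9672159), was at 2.36, 4.51, 3.13 and 4.46 scaled FPKM in La Quinta and 8.64, 11.3 and 16.0 in Wagyu. Every La Quinta bull was below the lowest Wagyu bull, and the log2 fold change was -1.69 ± 0.19 (limma adjusted p = 0.00148). PDK4, which inhibits pyruvate dehydrogenase in fasting and stress (chromosome 4, 12881889 to 12895362), measured 1.19, 1.75, 1.93 and 2.46 against 3.50, 4.96 and 7.32, again without overlap, a log2 fold change of -1.45 ± 0.23 (limma adjusted p = 0.0106). ZBTB16, a zinc finger transcription factor, had -0.82 ± 0.19 (limma adjusted p = 0.0480), with 2.15, 3.46, 2.96 and 2.72 against 3.07, 5.16 and 6.64 and some overlap.

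MT1E, a metal-binding metallothionein (chromosome 18, 24029352 to 24032186), stood at 0.794, 0.787, 0.560 and 1.00 against 2.60, 2.95 and 4.94, a log2 fold change of -1.91 ± 0.17 (limma adjusted p = 0.000181). Its called transcripts both fell. ENSBTAT00000046456 went from 1.79 ± 0.660 to 0.221 ± 0.189 (SD, limma adjusted p = 0.0140). ENSBTAT00000078606 went from 1.28 ± 0.636 to 2.82e-05 ± 4.36e-05 (limma adjusted p = 0.0452), and from 39.4% to 0.00359% of the FPKM of MT1E. ENSBTAT00000072451 instead went from 0.170 ± 0.429 to 0.565 ± 0.148 and was not called (limma adjusted p = 0.159). Metallothioneins are close paralogs, so the division of reads between them is uncertain, and MT2A, at 65.7, 61.6, 45.5 and 76.2 against 40.1, 51.8 and 75.2, had 0.23 (limma adjusted p = 0.548). The 2 genes called higher were NR3C1, the glucocorticoid receptor itself, at 2.93, 3.40, 3.74 and 3.18 against 2.28, 2.47 and 2.82 (0.38 ± 0.09, limma adjusted p = 0.0466), and CDKN1C, an inhibitor of the cell cycle, at 1.04 ± 0.23 (limma adjusted p = 0.0395). The responsive genes SGK1, PER2 and TXNIP gave 0.42, -0.55 and 0.54 and were not called (limma adjusted p = 0.150, 0.103 and 0.338). FKBP5, PDK4 and MT1E kept their calls without the 2 animals of large scaling factor, and ZBTB16, NR3C1 and CDKN1C did not (limma adjusted p = 0.189, 0.151 and 0.183). Of the chaperone and heat shock genes, 7 of 12 were tested with a median of -0.23, and XBP1, a transcription factor of the unfolded protein response, was called lower (-0.54, limma adjusted p = 0.0429). HSPA1A, the inducible heat shock protein, had 0.57 (limma adjusted p = 0.449).

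**Figure D3:**
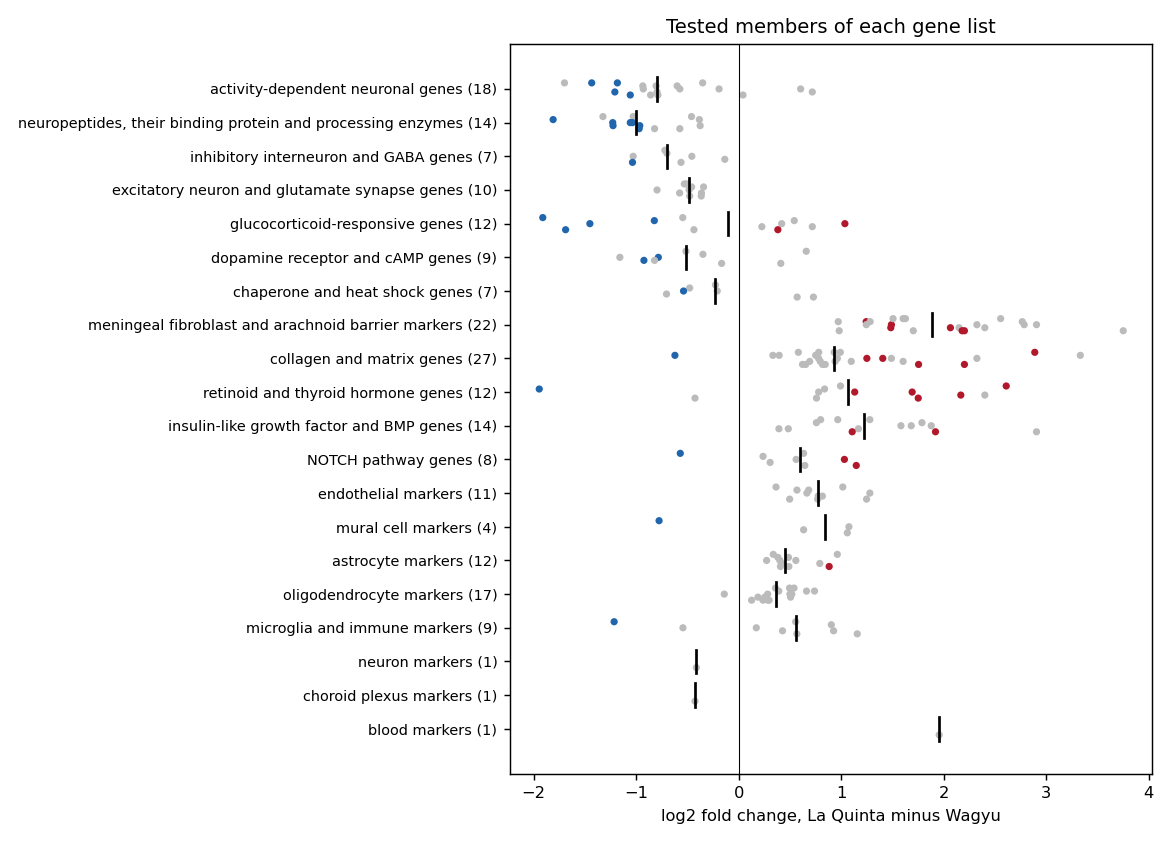
Each point is a tested gene with a symbol, placed by its log2 fold change of La Quinta minus Wagyu on the x axis, with the number tested in brackets, a black bar at the median of each list, and genes called higher in red and lower in blue. Neuropeptide genes lie to the left with a median of -1.0 and meningeal markers to the right with a median of 1.89.

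The summed level of markers of meningeal fibroblasts and the arachnoid barrier was above every Wagyu bull in 3 of the 4 La Quinta bulls. Of 28 listed, 22 were tested, all 22 had a positive log2 fold change, with a median of 1.89, and limma called 6 higher (COL1A1, DCN, LUM, FMOD, TWIST1 and ZIC1) and 0 lower. At an unadjusted p under 0.05 there were 22 higher and 0 lower, and by limma-voom 7 and 0, counts without a matching background. Summed per animal, the 22 genes reached 39.6, 132, 171 and 157 scaled FPKM in La Quinta, and 15.7, 22.3 and 80.8 as lowest, median and highest in Wagyu. LQ8312, at 39.6, lay below Wagyu replicates 3 and 4, at 80.8 and 69.5, so that the groups overlapped. Single members overlapped beyond LQ8312 as well, as in MGP, matrix Gla protein, at 6.93, 11.7, 16.1 and 10.8 against 1.17, 3.79 and 14.4. DCN, decorin, a proteoglycan that binds collagen fibrils, was at 6.89, 12.4, 19.4 and 16.3 against 1.71, 2.35 and 8.42, and rose by 2.07 ± 0.44 (limma adjusted p = 0.0347). COL1A1, the main chain of collagen I, read 1.14, 2.02, 3.98 and 3.54 against 0.208, 0.362 and 1.60, with 2.2 ± 0.43 (limma adjusted p = 0.0241). ZIC1, a transcription factor of the meninges, had 2.18 ± 0.47 (limma adjusted p = 0.0377).

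The largest log2 fold changes of that list were not called, and in these genes the animals of a group lay far apart. SLC13A4, a sulfate transporter of the meninges, was at 0.742, 10.4, 12.5 and 11.4 in La Quinta and 0.0653, 0.144 and 2.52 in Wagyu (3.75, limma adjusted p = 0.0660). IGF2, the growth factor secreted by meninges, stood at 3.79, 24.6, 29.0 and 32.9 against 0.582, 1.57 and 13.4 (2.91, limma adjusted p = 0.101). In both genes LQ8312 was within the Wagyu range and the other 3 La Quinta bulls above it. LUM, lumican, FMOD, fibromodulin, and TWIST1, a mesenchymal transcription factor, had 1.24, 1.49 and 1.48 (limma adjusted p = 0.0273, 0.0410 and 0.0497), and COL1A2 had 2.32 and missed the threshold (limma adjusted p = 0.0505). Without scaling between animals 4 members were called higher. Without the 2 animals of large scaling factor limma called 0 members, 16 were higher at an unadjusted p under 0.05, and the median was 1.72.

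When the log2 summed meningeal markers entered the limma fit as a covariate, 4 genes were called higher and 10 lower, and all 14 belonged to the 284 called without it. The log2 fold changes of all 284 kept their sign. Called with the covariate were GSTA3 (4.65, limma adjusted p = 0.0133), FKBP5 (-2.08, 0.0116), AK8 (-1.72, 0.0140), MT1E (-1.78, 0.0268), EEF2K (-1.47, 0.0189), FHOD1 (-1.75, 0.0189) and HCLS1, a signalling adaptor of blood cells (-1.79, 0.0111). OTOF, ADPRH and ISM1, named here after their values were seen, and 4 genes without a symbol made up the rest. For CORT and CRHBP the log2 fold changes became -1.0 and -0.83 (limma adjusted p = 0.0996 and 0.106), and for BDNF -0.98 (limma adjusted p = 0.324). The inhibitory interneuron list had a median of -0.91 in this fit, larger in size than without the covariate. The same held for the glucocorticoid-responsive (-0.36), chaperone (-0.28), oligodendrocyte (0.39) and choroid plexus (-2.11) lists. In every other list the median shrank. It was 0.10 for collagen and matrix, 0.24 for growth factor and BMP, 0.16 for endothelial, 0.07 for astrocyte, 0.01 for microglia and -0.21 for excitatory genes. Members of the meningeal list are part of the covariate, so their single values in this fit are not given. The collagen and BMP lists share some of them, and the retinoid and thyroid list shares CRABP2. The covariate was chosen after seeing the data, and its value differs between the groups.

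Collagen and matrix genes and retinoid genes lay mostly on the same side as the meningeal markers. Of 34 collagen and matrix genes 27 were tested, 26 had a positive log2 fold change, with a median of 0.93, and 5 were called higher and 1 lower. Over all tested genes with a symbol 11.2% were called higher and 6.36% lower. FBLN1, fibulin, a glycoprotein of elastic fibres, stood at 5.84, 24.0, 32.8 and 33.0 scaled FPKM in La Quinta and 1.28, 1.75 and 8.86 in Wagyu, with LQ8312 inside the Wagyu range, and had 2.89 ± 0.62 (limma adjusted p = 0.0377). COL6A1 and COL6A2, chains of collagen VI, rose together by 1.76 ± 0.31 and 1.25 ± 0.21 (limma adjusted p = 0.0178 and 0.0146), COL6A2 at 2.96, 3.17, 5.42 and 3.75 against 1.01, 1.47 and 2.38 without overlap. PCOLCE, which enhances procollagen cleavage, had 1.41 (limma adjusted p = 0.0106). COL4A1, a basement membrane collagen, was the member called lower, with 1.84, 1.84, 1.95 and 1.98 against 2.46, 2.87 and 3.90 and a log2 fold change of -0.62 ± 0.12 (limma adjusted p = 0.0268). The summed level of the list ran from 60.0 to 144 in La Quinta and from 29.8 to 75.8 in Wagyu. Without the 2 animals of large scaling factor limma called 0 members in either direction, and the median was 0.85.

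Among 18 retinoid and thyroid hormone genes 12 were tested, 5 were called higher and 1, DIO2, lower, and the median was 1.06. ALDH1A3, a retinaldehyde dehydrogenase like ALDH1A1, was at 0.295, 0.685, 1.05 and 0.816 against 0.0813, 0.124 and 0.242 and had 1.69 ± 0.28 (limma adjusted p = 0.0124). CRABP1, a cytoplasmic binding protein of retinoic acid, was the most abundant of the 5, at 9.23, 27.2, 44.3 and 46.9 against 1.83, 4.42 and 13.4, with overlap through LQ8312 (2.61 ± 0.51, limma adjusted p = 0.0244). CYP1B1, a monooxygenase that also oxidises retinol, and HR, a corepressor of the thyroid hormone receptor, had 2.17 and 1.13 (limma adjusted p = 0.0200 and 0.0113). HR, at 1.92, 1.98, 2.26 and 3.81 against 0.818, 1.05 and 1.38, did not overlap. The summed retinoid and thyroid list was 40.4, 77.9, 105 and 115 in La Quinta and 19.0, 30.2 and 63.5 in Wagyu. CRABP2 belongs to this list and to the meningeal list, so their sums are not separate measures. The relation of the sums was not tested. In the covariate fit ALDH1A1 had 0.89 (limma adjusted p = 0.546). HR and DIO2 were called without the animals of large scaling factor, the other 4 not.

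**Figure D4:**
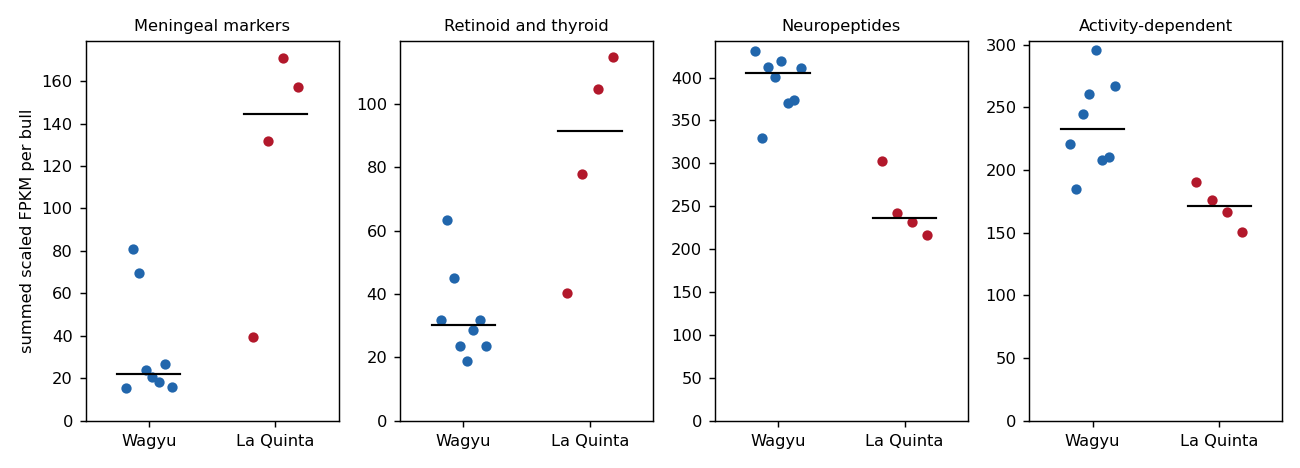
Each point is the summed scaled FPKM of the tested members of a gene list in 1 bull, with black bars at group medians and axes that start at 0. The meningeal sum of LQ8312 is 39.6, inside the Wagyu range of 15.7 to 80.8, while the neuropeptide sums of the groups do not overlap. Members come only from the study's own list of differing genes, so the separation is not independent evidence.

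In the insulin-like growth factor and BMP list all 14 tested genes of 20 had a positive log2 fold change, with a median of 1.22. Limma called 2 higher and limma-voom 3. Over all 991 tested genes with a symbol, limma called 11.2% higher and 754 were positive, so the called count is near that background. The 2 were BMP5, a bone morphogenetic protein, with 1.92 ± 0.36 (limma adjusted p = 0.0212), and BAMBI, a decoy receptor that dampens BMP signalling, at 2.30, 2.12, 2.0 and 2.65 against 0.606, 0.995 and 1.49 (1.11 ± 0.21, limma adjusted p = 0.0225). BAMBI did not overlap between groups. BMP4 and the target gene ID3 had 1.79 and 1.17 (limma adjusted p = 0.0587 and 0.0663). In the NOTCH list 8 of 15 were tested, with a median of 0.60, and 2 were called higher. NRARP, a target and feedback inhibitor of NOTCH, stood at 4.65, 4.93, 4.90 and 5.64 against 1.74, 2.26 and 3.46, apart in all bulls (1.03 ± 0.16, limma adjusted p = 0.0110). The receptor NOTCH1 had 1.15 (limma adjusted p = 0.0480). None of BMP5, BAMBI, NRARP and NOTCH1 kept its call without the 2 animals of large scaling factor.

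Of 11 endothelial markers tested of 15, limma called 0 and limma-voom 3, 9 were higher at an unadjusted p under 0.05, all had a positive log2 fold change, and the median was 0.77. KDR, a VEGF receptor, CDH5, the cadherin of endothelial junctions, and CLDN5, a tight junction protein, had 1.02, 1.28 and 0.77 (limma adjusted p = 0.0524, 0.0574 and 0.0648). Mural cell markers had 4 tested of 10, a median of 0.85, and CSPG4, a proteoglycan of pericytes and oligodendrocyte precursors, was called lower (0.269, 0.244, 0.349 and 0.350 against 0.487, 0.567 and 0.710, -0.78, limma adjusted p = 0.0204). Of 12 astrocyte markers tested of 18, FGFR3, a growth factor receptor, was called higher (7.07, 7.96, 8.78 and 9.95 against 3.15, 4.26 and 6.08, 0.88, limma adjusted p = 0.0203). All 12 had a positive log2 fold change, 9 were higher at an unadjusted p under 0.05, and the median was 0.45. Over all 991 tested genes with a symbol, 754 were positive and 11.2% were called higher. The summed astrocyte level ran from 1748 to 2026 in La Quinta and from 1121 to 2066 in Wagyu.

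Of 17 oligodendrocyte markers tested of 24, limma and limma-voom called 0, 2 were higher at an unadjusted p under 0.05, and the median was 0.36. Among 9 microglia and immune markers tested of 18, HCLS1 was called lower, at 0.635, 1.04, 0.959 and 1.11 against 1.72, 2.25 and 3.10 (-1.22 ± 0.20, limma adjusted p = 0.0124), while CX3CR1, the fractalkine receptor of microglia, had 1.16 (limma adjusted p = 0.0790), and the median was 0.56. Of 7 blood markers and 8 choroid plexus markers 1 each could be tested. HBB, beta globin, was at 0.596, 2.03, 5.18 and 1.16 scaled FPKM against 0, 0.436 and 1.94 (1.96, limma adjusted p = 0.184). TTR, transthyretin, the thyroid hormone carrier of the choroid plexus, was at 1.43, 1.11, 1.87 and 1.57 against 0.161, 3.58 and 9.81 (-0.43, limma adjusted p = 0.855).

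The Montealto bulls, Lidia of the other farm, were used to ask where the La Quinta bulls differed from bulls of the same breed, 1 of which, MA8174, was 4 years old. In a direct limma test of 4 against 4 animals, scaled among these 8, 7 of 16546 genes (0.0423%) were called, 2 higher and 5 lower in La Quinta, with 678 genes at an unadjusted p under 0.05. Of the 2 called higher, GSTA3 has a symbol. It stood at 6.86, 4.65, 10.3 and 4.64 in La Quinta and at 0.187, 0, 0.197 and 0.0554 in MA8162, MA8165, MA8171 and MA8174, the Montealto bulls, a log2 fold change of 5.06 ± 0.41 (limma adjusted p = 0.00709). Every Montealto value was below the highest Wagyu value of the main comparison, each on its own scaling. TTR was lower, at 1.36, 1.03, 1.74 and 1.48 in La Quinta against 11.5, 18.5, 9.52 and 7.42 in Montealto, with a log2 fold change of -2.92 ± 0.28 (limma adjusted p = 0.00934). Here La Quinta lay inside the range of Wagyu and all 4 Montealto bulls above La Quinta.

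The other 5 genes called between the farms have no symbol. Each was listed at 0 in every bull of 1 farm and passed the filter only through the other, so its call is not support. ENSBTAG00000029640 was at 15.7, 8.37, 2.23 and 4.59 in La Quinta and listed at 0 in all 4 Montealto bulls, as in all 8 Wagyu. The 4 others were listed at 0 in all 4 La Quinta bulls, among them ENSBTAG00000048200, of 130 bases, at 0.921 to 1.95 in Montealto, ENSBTAG00000050311 on chromosome 3, at 0.386 to 1.17, and a pair of 135 bases with identical values, ENSBTAG00000042836 and ENSBTAG00000050094. Without LQ8312, 2 genes were called, and GSTA3 and TTR had limma adjusted p = 0.0510 and 0.0786. TTR also lost its call without LQ8314 or MA8162 (limma adjusted p = 0.0508 and 0.0548).

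Against the same 8 Wagyu bulls, 38 genes (0.231%) were called higher and 13 (0.0789%) lower in Montealto. The comparisons of both farms share the Wagyu animals, so their values are set side by side without a test of likeness. List medians, La Quinta first, were 1.89 and 1.35 for meningeal markers and -1.0 and -0.66 for neuropeptide genes. They were 0.77 and 0.94 for endothelial, 0.45 and 0.59 for astrocyte and 0.36 and 0.90 for oligodendrocyte markers. The signs of these lists are therefore not particular to La Quinta. EEF2K gave -1.28 in La Quinta and -1.34 in Montealto, FKBP5 -1.69 and -1.44, BDNF -1.43 and -1.30, and DIO2 -1.95 and -1.52, each called in both (limma adjusted p in Montealto = 0.00805, 0.0103, 0.0296 and 0.0318). NPY gave -0.97 and -0.54, and CORT -1.23 and -1.08 (limma adjusted p in Montealto = 0.231 and 0.136). AK8 and GSTA3 gave -1.81 and 4.99 in La Quinta but 0.05 and -0.11 in Montealto. For AK8 the direct difference between the farms was -1.85 ± 0.23 and narrowly missed the threshold (limma adjusted p = 0.0521).

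**Figure D5:**
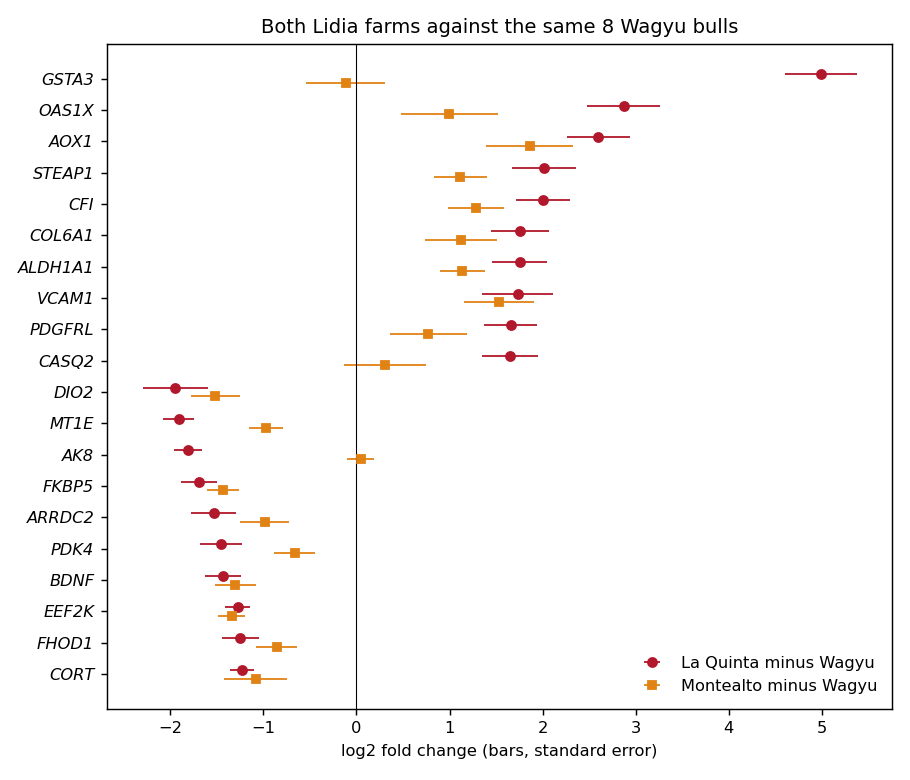
The 20 genes of largest change are those selected for La Quinta and Wagyu groups that do not overlap. The x axis gives the log2 fold change against the same 8 Wagyu bulls. Red circles are La Quinta, orange squares are Montealto, and bars are the standard error. GSTA3 and AK8 lie near 0 in Montealto, at -0.11 and 0.05.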

How the data were processed

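PFC RNA was sequenced as 1 poly(A) library per animal. The authors mapped the trimmed reads with STAR 2.7.3a to ARS-UCD 1.2 with the Ensembl annotation and deposited, per animal, the FPKM and coverage that Cufflinks 2.2.1 gave each transcript, with no scaling between animals and no read counts. The versions are from the submitters' processing notes. FPKM was summed per gene and scaled by the median of ratios. For genes with a mean of 0.1 or more, log2(FPKM + 0.1) was fitted by limma 3.58.1 under R 4.3.3 (variance trend, two-sided, Benjamini-Hochberg over all tested genes, no covariate). On this scale fold changes of low genes are understated. Fragments were coverage divided by FPKM, at 200 bases each. Single values per animal were compared by exact permutation with scipy 1.17.1. The test was checked on simulated data.

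Of 1197 entries of the study's gene list, 1050 were paired with a single gene of identical position, giving 998 symbols. Of 37063 RefSeq genes 0 matched by identifier. Named are the 10 genes of largest rise and fall with a symbol, called, without overlap between groups and with a group mean of at least 1, the 2 each way without a symbol, called members of the 20 gene lists (1 gene is not reported here), and up to 5 called between the farms. The comparison and the lists were chosen with earlier results of these data known. The alternatives were no scaling, upper-quartile scaling, pseudocounts of 1 and 0.01, a mean of at least 1, no filter, array weights, no trend, limma-voom, an exact rank-sum test, a stricter threshold of 0.01, leaving out each animal or both of large scaling factor and, chosen after seeing the data, a meningeal covariate. No sequences were analysed here.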

Additional observations from a re-analysis of the deposited data

Results flagged for a closer look

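A single animal stood apart from the rest of its group in 9 of 166 groups examined, over the named genes, the list sums, the fragments and the mitochondrial share, by a gap test that chance passes in about 1 in 20 groups. Wagyu replicate 3 was apart in 4 genes: BDNF at 1.83 scaled FPKM against 3.14 to 4.37 in the other 7 Wagyu bulls, PTHLH at 5.30 against 2.38 to 3.12, PCOLCE at 2.62 against 0.970 to 1.49 and BMP5 at 0.888 against 0.148 to 0.375. Wagyu replicate 5 was apart in its fragments, 7.67 M (mega) against 29.4 to 37.0 M, in its mitochondrial share, 39.3% against 17.8% to 27.5%, and in RGS8, at 1.69 against 0.822 to 1.16. Wagyu replicate 1 had a summed oligodendrocyte level of 409 against 138 to 224. LQ8312 was apart in CDKN1C, at 1.46 against 2.40 to 2.56.

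The La Quinta bulls differed from the Montealto bulls in 3 of the named genes by a direct limma test: GSTA3 (adjusted p = 0.00709), ENSBTAG00000029640 (adjusted p = 0.00709) and TTR (adjusted p = 0.00934). ENSBTAG00000029640 was listed at 0 in every Montealto bull and passed the filter only through La Quinta, so its call is not support. TTR was named only because this test called it. GSTA3 lost its call without LQ8312, and TTR lost its call without LQ8312, LQ8314 or MA8162.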

How the results depend on the processing

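The numbers of genes called higher and lower, 170 and 114, stayed within 1.5 times of these under upper-quartile scaling, both other pseudocounts, both other filters, no trend and limma-voom. They were 39 and 11 without scaling, where the median log2 fold change of all genes was 0.11, 1346 and 921 with array weights, 9 and 16 with adjusted p not above 0.01, 18 and 31 without both animals of large scaling factor and 4 and 10 with the meningeal covariate chosen after seeing the data. The exact rank-sum test called 0 and 0 (smallest adjusted p = 0.141, 2645 genes at an unadjusted p under 0.05), but its smallest possible p is 0.00404. Leaving out 1 animal gave 31 to 567 higher and 34 to 222 lower. Beside the animals named in the report, 86 and 67 were called without Wagyu replicate 6, 92 and 72 without 9, 88 and 69 without 12, 108 and 77 without 5, and 110 and 98 without 7. Between the farms 2 to 9 genes were called, and 10 without scaling. The cause of these changes was not tested. Of the 60 named genes called in La Quinta against Wagyu, 0 changed sign with a call in any setting, 23 were called without both animals of large scaling factor, 9 with the covariate and 20 without scaling, and 5 lost the call in the rank-sum test alone (GSTA3, AK8, MT1E, ENSBTAG00000029640 and ENSBTAG00000012710). ENSBTAG00000029640 and ENSBTAG00000012710 were listed at 0 in every Wagyu bull and passed the filter only through La Quinta, so their kept calls are not support. The mitochondrial share differed by 1.38 to 4.86 percentage points, with exact permutation p = 0.0727 to 0.679, when 1 animal was left out. No paired analysis was possible because the groups share no replicate numbers. Without read counts, no counting error per gene could be given, and the precision rests on 4 and 8 animals.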
